A study of Mus musculus with 39 samples.

Results

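The step from day 1 to day 3 of untreated differentiation was examined in mouse embryonic stem (ES) cells that had been placed in differentiation medium without Activin A or Wnt3a. Its members are the 3 control arrays of day 1 and the 3 control arrays of day 3, 6 of the 39 arrays in the series, chosen by their labels for treatment and time. The cells were TCL-1, an ES line derived from 129/SvJae mice and used between passages 10 and 20. Before differentiation they were kept with LIF on a layer of mitomycin C-treated mouse embryonic fibroblasts (MEFs), freed of that layer by 1 h on gelatin and seeded on collagen, and every control and treated group then received RPMI medium with B27 and sodium butyrate. The study used the controls as the reference at each time point for cells that received Wnt3a, Activin A or both on the way to definitive endoderm. The comparison within the controls asks how the miRNAs of the culture changed over 2 days with none of the growth factors. Replicates are separate samples by their labels. Nothing in the labels or methods says that they came from separate cultures, so p-values measure the spread between these samples only.

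miRNAs are RNAs of about the length of the sequences printed here. Bases 2 to 8 of the mature strand, the seed, pair with target messenger RNAs, and miRNAs with the same seed are counted as a family. Mouse ES cells are known for the miR-290 to miR-295 cluster, which marks the naive state, and for the related miR-302 to miR-367 cluster, which is a mark of the later, primed epiblast. Mature let-7 is held low in pluripotent cells by the RNA-binding protein Lin28 and is known to accumulate in many lineages as cells differentiate. A hairpin can yield a mature miRNA from each of its arms, and the less used strand carries a star in the array's names.

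The first set of sequences holds the seed families of the pluripotency clusters and of the related miR-17 to miR-92a clusters, shown because the results turn on members of the same family that moved in opposite directions. Capitals mark the seed. Sequences are from RefSeq on the GRCm38.p6 build, and the array's name was matched to the RefSeq strand for all 25 miRNAs printed.
miR-294: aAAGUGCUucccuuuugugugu
miR-295: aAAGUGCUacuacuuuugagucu
miR-291a-3p: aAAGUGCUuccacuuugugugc
miR-293: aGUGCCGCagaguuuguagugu
miR-302b: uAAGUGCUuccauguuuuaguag
miR-302c: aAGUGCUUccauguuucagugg
miR-302d: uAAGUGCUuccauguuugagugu
miR-367: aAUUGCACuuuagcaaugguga
miR-17: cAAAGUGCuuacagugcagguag
miR-20b: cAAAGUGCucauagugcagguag
miR-92a: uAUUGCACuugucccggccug
The letters AAGUGCU at the seed are shared by 5 of these miRNAs, miR-294, miR-295 and miR-291a-3p of the miR-290 to miR-295 cluster and miR-302b and miR-302d of the miR-302 to miR-367 cluster. miR-302c carries them shifted by a base in the form printed here, and miR-17 and miR-20b hold AAGUGC within a shifted seed. miR-367 and miR-92a share the seed AUUGCAC, and the seed of miR-293, GUGCCGC, is shared with none of the others printed. The 4 printed members of the miR-290 to miR-295 cluster lie within 1870 bases at chr7:3218968-3220837 on the plus strand, inside the RefSeq spans of D7Ertd143e and Nlrp12. The 4 printed members of the miR-302 to miR-367 cluster lie within 526 bases at chr3:127545275-127545800 on the plus strand, inside the spans of Larp7 and Gm51018. miR-17 lies at chr14:115043684-115043706, miR-20b at chrX:52742159-52742181, and miR-92a at both chr14:115044476-115044496 and chrX:52741854-52741874. Genes with symbols that start with Mir were left out of all spans given here, and no other RefSeq gene used spanned these positions.

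The second set holds miRNAs with large falls between the days.
let-7i: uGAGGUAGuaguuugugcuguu
let-7f: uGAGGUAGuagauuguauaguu
let-7e: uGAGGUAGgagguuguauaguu
miR-29a: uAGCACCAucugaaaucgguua
miR-29b: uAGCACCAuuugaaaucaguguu
miR-125b-5p: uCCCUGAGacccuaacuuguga
miR-199a-3p: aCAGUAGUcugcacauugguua
miR-214: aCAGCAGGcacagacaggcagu
The let-7 members share GAGGUAG and the miR-29 members share AGCACCA. miR-214 and a copy of miR-199a-3p lie at chr1:162223438-162223459 and chr1:162217883-162217904 inside Dnm3os, a transcript on the opposite strand of Dnm3. A further copy of miR-199a-3p lies at chr9:21496498-21496519 inside Dnm2.

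The third set holds miRNAs with large rises.
miR-335-5p: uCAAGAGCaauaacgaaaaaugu
miR-335-3p: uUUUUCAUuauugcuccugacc
miR-483: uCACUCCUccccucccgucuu
miR-125a-3p: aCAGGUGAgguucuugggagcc
miR-1224: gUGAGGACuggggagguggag
miR-9: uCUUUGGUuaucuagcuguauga
Both strands of the miR-335 hairpin lie at chr6:30741314-30741375 inside the imprinted gene Mest, miR-483 at chr7:142654932-142654952 inside Igf2, and miR-1224 at chr16:20604452-20604472 inside Vwa5b2. miR-125a-3p and let-7e lie within 511 bases of each other at chr17:17830366-17830876 inside Spaca6. The RefSeq table used gives gene spans, so exon and intron were not assigned.

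The arrays carried 611 mouse miRNAs, of which 183, 234 and 206 were detected on the day 1 arrays and 293, 250 and 296 on the day 3 arrays. The mean was 207.7 ± 25.5 (SD, n = 3) at day 1 and 279.7 ± 25.7 (SD, n = 3) at day 3, and the counts of the days did not overlap (exact two-sided permutation test, p = 0.1, the smallest that 3 against 3 arrays allow). The lowest detected normalized signal was 33.7, 15.3 and 24.3 on the day 1 arrays and 3.77, 11.3 and 3.53 on the day 3 arrays. After quantile normalization this lowest value follows from how many miRNAs an array detected. All 3 day 1 arrays sat on 1 slide and the day 3 arrays on 2 others, and no slide held controls of both days. All levels given here are log2 of the signal after quantile normalization, with a floor at 1, the value an undetected miRNA takes. Levels are compared between days for the same miRNA, because probes of different miRNAs differ in brightness. Quantile normalization gives every array the same distribution, so a miRNA near the top of it can take identical values on all 3 arrays of a day, and an SD of 0 there reflects a shared rank.

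Of 297 mouse miRNAs detected on at least 2 arrays of either day, 181 (60.9%) had an adjusted p under 0.05 and a change of more than 2-fold in limma with Benjamini-Hochberg adjustment. These are said to have risen or fallen in the text. With the slide as a term the count was 157, and 139 of those were shared. Among the miRNAs named below, miR-370, miR-487b, miR-134, miR-667, miR-17, miR-17*, miR-18a*, miR-291b-5p, miR-293*, let-7f*, miR-100, miR-9, miR-10a, miR-10b, miR-195, miR-301a, miR-301b, miR-130b* and miR-155 were not called with that term. Higher at day 3 were 118 (39.7%) and lower were 63 (21.2%), with a median difference over all tested miRNAs of 0.75 on the log2 scale. The balance of higher and lower rested on the miRNAs that 1 of the days did not detect. Among the 166 miRNAs detected on all 6 arrays, 79 (47.6%) were called, 32 higher (19.3%) and 47 lower (28.3%), with a median difference of -0.10. For those 166, the replicates lay 0.085 to 0.187 from their group mean (root mean square, log2), against 1.60 between the means of the days. In bulk RNA of this kind, fewer cells of a type and less RNA per cell cannot be told apart. The split between higher and lower depended on the scale. Without normalization 194 of 224 called miRNAs were higher, with the floor at 16 in place of 2 it was 69 of 128, with undetected values raised to the lowest detected signal of the array it was 52 of 147, and with normexp background correction 15 of 40.

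Of the 67 tested miRNAs that no day 1 array detected, 57 were called higher at day 3, but only 19 of them had a mean above the mean lowest detected signal of the day 1 arrays, and 6 exceeded it by more than 2-fold. The other direction was held by 9 miRNAs that no day 3 array detected. All 9 were called lower, and for 8 of them the fold against the mean lowest detected signal of the day 3 arrays was over 2, up to 42.6. A fold for these miRNAs is given as "at least", taken from the mean lowest detected log2 signal of the 3 arrays that missed them. It is a reference and no strict limit, because the lowest detected signal differed between arrays (1.915, 3.493 and 1.819 at day 3, log2). Probes also differ in brightness, so an undetected miRNA may lie above it.

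**Figure D1:**
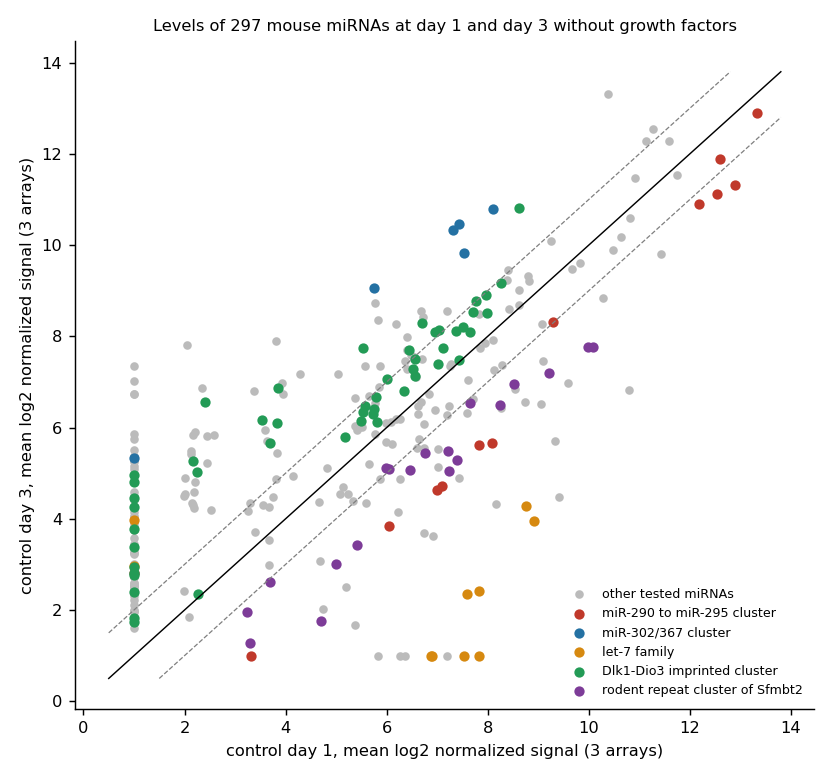
Mean log2 normalized signal of 297 tested mouse miRNAs in controls at day 1 (x axis) and day 3 (y axis), 3 arrays each, with equality as a solid line, 2-fold as dashed lines and 5 groups in colour. The miR-302 to miR-367 cluster lies above the band. let-7 main strands and the miR-290 to miR-295 cluster, apart from miR-291b-5p, lie below the line. The column of points at 1 on the x axis holds the 67 miRNAs undetected on all day 1 arrays.

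The ES cell clusters moved in opposite directions between day 1 and day 3. Of 13 tested strands of the miR-290 to miR-295 cluster, 9 fell, 3 were lower by less than 2-fold and 1, miR-291b-5p, was called higher, while all 6 tested strands of the miR-302 to miR-367 cluster were called higher. Of all tested miRNAs 39.7% were called higher and 21.2% lower. The median difference was -1.57 for the miR-290 to miR-295 cluster and 3.04 for the miR-302 to miR-367 cluster, beside 0.75 over all tested miRNAs. Directions of the miR-302 to miR-367 cluster were the same under every scaling tried. Of the miR-290 to miR-295 cluster 11 of 13 strands stayed below 0 even without normalization, though miR-291a-3p and miR-295* lost their calls there.

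Within the miR-302 to miR-367 cluster, miR-302c was at 6.08, 5.67 and 5.48 on the day 1 arrays and at 9.07, 9.0 and 9.07 on the day 3 arrays. Every day 3 value was above every day 1 value, and the rise of 3.31 ± 0.10 (log2, SE) was 9.91-fold (adjusted p = 2.11e-21). miR-302d went from 7.38, 7.46 and 7.43 to 10.38, 10.38 and 10.64, an 8.25-fold rise, and miR-302b from 7.29, 7.36 and 7.29 to 10.27, 10.27 and 10.47, an 8.16-fold rise. miR-302a, at 8.11, 8.07 and 8.15 before, reached 10.74, 10.64 and 10.98, a 6.39-fold rise. The days were apart by over 2 log2 units for each of these strands. miR-367 had the widest spread, from 7.80, 7.33 and 7.46 to 10.16, 10.16 and 9.16, and rose 4.90-fold (adjusted p = 3.16e-08). The passenger strand miR-302a* was undetected on the day 1 arrays and at 5.30, 5.24 and 5.43 at day 3, at least 1.73-fold higher.

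In the miR-290 to miR-295 cluster, miR-294 and miR-295 stayed under 2-fold on the quantile scale. miR-294 was at 13.32 on each day 1 array and at 12.89 on each day 3 array, a difference of -0.43 (adjusted p = 0.00206). Scaled to the 75th percentile of each array instead, the difference of miR-294 was -2.28 and that of miR-295 was -2.35, both past 2-fold, and with the slide as a term the adjusted p of miR-294 was 0.149. miR-295 was at 12.48, 12.64 and 12.64 and then at 11.75, 11.75 and 12.18. These 2 strands, which share their seed with miR-302b and miR-302d, were lower on every day 3 array. miR-292-3p fell from 12.89 on each array to 11.27, 11.27 and 11.43 (2.98-fold, adjusted p = 3.12e-15), miR-293 from 12.64, 12.48 and 12.48 to 11.13 on each array (2.65-fold), and miR-291a-3p from 12.18 on each to 10.98, 10.98 and 10.74 (2.43-fold).

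Most of the other strands of the cluster fell as well. miR-291a-5p went from 8.05, 8.11 and 8.11 to 5.65, 5.61 and 5.76, a 5.35-fold fall, and miR-290-3p from 7.17, 7.10 and 7.0 to 4.75, 4.57 and 4.82, a 5.18-fold fall. miR-294* went from 6.80, 7.08 and 7.12 to 4.72, 4.29 and 4.89, a 5.15-fold fall. For miR-294 and miR-294*, the arms of 1 hairpin, the differences were thus -0.43 and -2.36 on the quantile scale. This gap depended on the scale, since miR-294 was at -2.28 when scaled to the 75th percentile. With normexp background correction miR-294* was at 0.85. miR-292-5p fell 4.62-fold and miR-295* 4.58-fold, while miR-290-5p, from 9.13, 9.49 and 9.27 to 8.29, 8.29 and 8.36, stayed at 1.98-fold. miR-293* was detected on 2 day 1 arrays and on no day 3 array, at least 1.87-fold lower. The rise called for miR-291b-5p rested on values of 3.77 and 3.64 on 2 day 3 arrays, under the lowest detected signal of each day 1 array. Shares of the mouse signal, here and below, were summed over detected strands from the same normalized values. They are thus no separate evidence, and bright probes weigh more in them. The miR-290 to miR-295 cluster held 39.5% to 39.8% of the summed mouse miRNA signal at day 1 and 19.9% to 21.2% at day 3. The miR-302 to miR-367 cluster held 0.897% to 0.984% and then 6.41% to 6.74%.

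**Figure D2:**
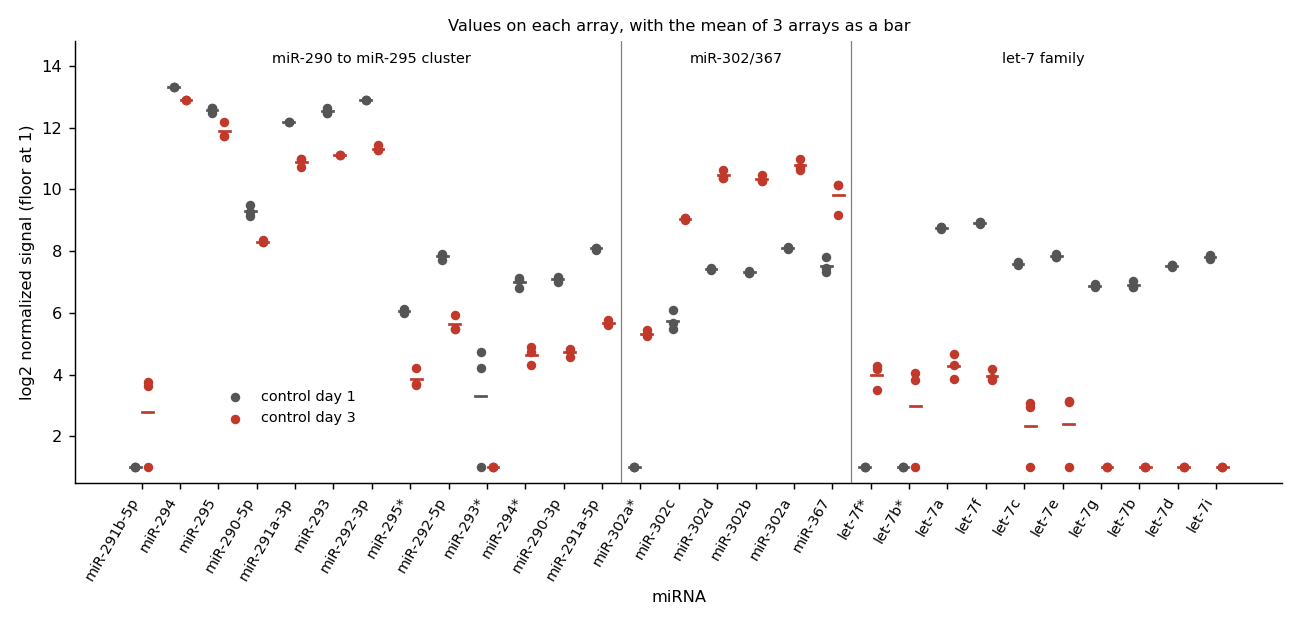
Log2 normalized signal of each tested strand of the miR-290 to miR-295 cluster, the miR-302 to miR-367 cluster and the let-7 family on the 3 control day 1 arrays (grey) and the 3 control day 3 arrays (red), with bars at the means. Points at 1 are undetected, and miR-302c, at 5.48 to 6.08 on day 1 and 9.0 to 9.07 on day 3, shows the separation of the days seen across its cluster.

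Members of the miR-17 to miR-92a, miR-106a to miR-363 and miR-106b to miR-25 clusters, paralogous clusters linked to proliferation that carry the AAGUGC letters in several seeds, had no member called lower. Of 18 tested strands 6 were called higher and 12 were not called, beside 39.7% called higher of all tested miRNAs. miR-17 rose from 6.32, 7.0 and 6.86 to 8.43, 8.48 and 8.40, a 3.27-fold change whose call was lost with the slide as a term and with normexp. miR-20b rose from 11.27 on each array to 12.48, 12.48 and 12.64, a 2.41-fold change, and miR-19b, at 11.13 on each day 1 array, was at 12.64, 12.64 and 11.59, a 2.24-fold change. The rises of miR-20b and miR-19b depended on the scale, since scaled to the 75th percentile miR-20b differed by 0.14 and miR-19b by 0.36, neither past 2-fold. miR-18a (2.07-fold) and miR-17* (2.01-fold) lay just past the limit, and miR-18a* was detected on 1 day 1 array and all day 3 arrays. miR-92a, which shares its seed with miR-367, was at 11.59 on each day 1 array and 12.18, 12.18 and 12.48 at day 3, a difference of 0.69 that was -0.44 when scaled to the 75th percentile. miR-19a, miR-25 and miR-20b* had differences of 0.18, -0.20 and -0.29. Summed over the list, 14.4% of the mouse signal at day 1 became 24.5% to 27.2% at day 3.

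Mature let-7 fell. All 8 tested main strands were called lower, beside 21.2% of all tested miRNAs, with 4 of them undetected on all day 3 arrays. Their direction was the same under every scaling. let-7f was at 8.94, 8.87 and 8.94 and then at 3.84, 4.17 and 3.88, a 31.0-fold fall (adjusted p = 1.38e-10). let-7a went from 8.78, 8.72 and 8.78 to 3.86, 4.31 and 4.68, a 22.2-fold fall. let-7c, at 7.65, 7.58 and 7.54, and let-7e, at 7.91, 7.80 and 7.80, were each detected on 2 day 3 arrays, at 2.95 to 3.13. No value of either day came within 2 log2 units of the other day. let-7i, at 7.85, 7.73 and 7.88, fell at least 42.6-fold, and let-7d, at 7.54, 7.54 and 7.49, at least 34.7-fold. let-7b and let-7g, at 6.82 to 7.03, fell at least 22.4-fold and 22.2-fold. The star strands let-7f* and let-7b*, undetected at day 1, were called higher at values of 3.49 to 4.26, with means under the mean lowest detected signal of the day 1 arrays. let-7 held 2.11% to 2.25% of the mouse signal on the day 1 arrays and 0.0537% to 0.0981% on the day 3 arrays.

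The neighbours that let-7 has in the genome did not follow it as a group. Of 7 tested strands of miR-99, miR-100 and miR-125, partners of let-7 in paralogous clusters, 3 were called higher, 1 lower and 3 were not called. Over all tested miRNAs 39.7% were called higher and 21.2% lower. miR-125b-5p fell from 10.74, 10.81 and 10.81 to 6.88, 6.74 and 6.86, a 15.6-fold change (adjusted p = 3.70e-25) with a spread within each day under 0.2. In the cluster on chromosome 17, let-7e differed by -5.42 while miR-125a-5p was at 6.70, 6.74 and 6.80 and then at 6.05, 5.95 and 6.26, a difference of -0.66, and miR-99b by -0.31. The other arm of the same miR-125a hairpin was called higher. miR-125a-3p was undetected on all day 1 arrays and at 7.05, 6.97 and 7.03 at day 3, at least 5.58-fold higher. Its call was lost with normexp background correction. Without normalization miR-125b-5p was the only 1 of the 7 tested strands below 0, so the direction of miR-125a-5p depended on the scale. miR-99a and miR-100 were called higher at levels of 2.88 to 4.64 on the arrays that detected them, with 1 day 1 array at 4.43 for miR-100.

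The tested members of 3 further families all fell, beside 21.2% called lower of all tested miRNAs. The miR-29 family, known for targets among collagen genes and DNA methyltransferases, fell on 3 of 3 tested members, of 6 on the array. miR-29b went from 8.32, 8.15 and 8.05 to 4.29, 4.81 and 3.86 (14.4-fold), miR-29a from 9.22, 9.38 and 9.38 to 5.71, 5.74 and 5.67 (12.3-fold) and miR-29c from 6.23 on each array to 4.41, 3.93 and 4.11 (4.23-fold). In each of these the lowest day 1 value was above the highest day 3 value by at least 1.5 log2 units. The miR-34 members, which are p53 targets, also fell on 3 of 3 tested, of 8 on the array, with miR-34b-5p from 7.05, 6.80 and 6.88 to 3.55, 3.99 and 3.30 (9.83-fold), miR-34c 8.30-fold and miR-34a from 10.27 on each array to 8.81, 8.81 and 8.87 (2.71-fold). All 5 tested members of the miR-23, miR-27 and miR-24 clusters fell, of 9 on the array. Of these miR-23a, from 9.65, 9.57 and 9.57 to 6.97, 6.90 and 7.05, changed by 6.16-fold, miR-27a by 4.49-fold, miR-23b by 3.25-fold, miR-24 by 3.13-fold and miR-27b by 2.41-fold. Without normalization miR-34a differed by 0.02, and every other tested member of these 3 families remained below 0. The calls of miR-34a, miR-29c, miR-27b, miR-24 and miR-23b were lost without normalization.

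miRNAs that fibroblasts and mesenchyme are known to express fell over the same step, and such cells were present in the culture before differentiation as the feeder layer. Of 8 tested members 6 fell, beside 21.2% called lower of all tested miRNAs. miR-31 was at -0.99, and miR-152 was called higher at levels of 2.83 and 2.86 on 2 day 3 arrays. miR-199a-3p went from 9.49, 9.27 and 9.49 to 4.60, 4.15 and 4.66 (30.8-fold), miR-22 from 9.07, 9.0 and 9.07 to 6.48, 6.58 and 6.52 (5.76-fold), and miR-21 from 11.43 on each array to 9.65, 9.74 and 10.04 (3.07-fold). miR-199a-5p, miR-199b* and miR-214 went from detected on all day 1 arrays to undetected on all day 3 arrays, with falls of at least 27.7-fold, 15.5-fold and 14.5-fold. Of the 15 members of that list on the array, 7 were detected on all 3 day 1 arrays and 4 on all 3 day 3 arrays, while miR-143 was detected on 1 day 1 array and miR-145, a defining smooth muscle and fibroblast miRNA, on none. The list's share of the mouse signal ranged from 4.04% to 4.92% over the ES arrays and from 4.70% to 4.83% over the day 1 arrays. On day 3 arrays the range was 1.04% to 1.32%, and on day 5 arrays 1.91% to 2.03%. Its fall went with those of let-7, miR-29, miR-125b-5p and the miR-23, miR-27 and miR-24 clusters, and its part in those results was not tested.

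The miRNAs of the Dlk1-Dio3 imprinted cluster, expressed from the maternal chromosome, had no member called lower. All 50 tested strands had a difference above 0, beside 191 of all 297 tested miRNAs. With quantile normalization of log2 signals 46 were above 0 and 1 below, and with normexp 48 and 2. In the main test 23 were called higher, beside 39.7% of all tested miRNAs, with a median of 0.98 beside 0.75 over all tested miRNAs. Of the 50 strands, 30 were detected on all 6 arrays, and all 30 were above 0 under every scaling tried. In the main test 81 of all 166 miRNAs detected on all 6 arrays were above 0. Among those 30, 8 were called higher, beside 19.3% of the 166 miRNAs detected on all 6 arrays, and their median difference of 0.78 stands beside -0.10 for those 166. miR-370 rose from 5.32, 5.80 and 5.46 to 7.60, 7.82 and 7.80, a 4.64-fold change whose call was lost with the slide as a term and with normexp. miR-494 rose from 8.43, 8.94 and 8.52 to 10.81 on each array, a 4.55-fold change, and miR-541 from 6.58, 6.72 and 6.78 to 8.22, 8.26 and 8.43, a 3.05-fold change. In contrast to these, miR-376a, miR-431, miR-329, miR-323-3p and miR-410 rose by 2.02-fold to 2.38-fold, and miR-127, miR-300 and miR-411* were at 0.92, 0.95 and 0.95, just under the limit. A further 15 called members were detected on at most 2 day 1 arrays. miR-380-3p, at 5.24 on 1 day 1 array, was at 6.61, 6.61 and 6.46 at day 3, and miR-487b, at 5.10 and 5.43 on 2 day 1 arrays, was at 6.84, 6.86 and 6.88. miR-136* and miR-369-3p, undetected at day 1, were at least 1.35-fold and 1.20-fold higher, and miR-496, miR-770-3p, miR-376b*, miR-665, miR-431*, miR-667, miR-376a* and miR-433*, also undetected at day 1, were called at mean levels below the mean lowest detected signal of the day 1 arrays. miR-382*, miR-433 and miR-134 were each detected on 1 or 2 day 1 arrays. These strands held 4.28% to 4.65% of the mouse signal on the day 1 arrays and 9.43% to 9.74% on the day 3 arrays.

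The rodent-specific miR-297, miR-466, miR-467 and miR-669 miRNAs, encoded as a large repeat within an intron of Sfmbt2, fell together. Of 19 tested strands 15 fell, beside 21.2% called lower of all tested miRNAs, and 4 were not called. All 19 had a difference below 0. miR-466a-3p went from 10.16, 10.04 and 10.04 to 7.73, 7.65 and 7.91 (4.99-fold), miR-669f from 10.04, 9.74 and 10.16 to 7.88, 7.70 and 7.73 (4.62-fold), and miR-669a from 9.27, 9.13 and 9.22 to 7.19, 7.17 and 7.24 (4.02-fold). miR-467c fell 4.51-fold, miR-467e 4.31-fold and miR-467b 2.95-fold. The falls of miR-297a*, miR-466h, miR-467a*, miR-467a, miR-669d, miR-669b and miR-669c ran from 4.02-fold down to 2.17-fold, and miR-466d-3p and miR-466g went from detection on 3 and 2 day 1 arrays to 2 and 1 day 3 arrays. Members of this repeat have similar sequences, so probes may share signal and the strands are not independent. Without normalization 15 of the 19 remained below 0, with a median of -0.52, but no called strand kept its call. With normexp background correction only miR-669a, miR-669f and miR-466a-3p kept their calls. Strands of this repeat held 4.70% to 5.11% of the mouse signal on the day 1 arrays and 1.26% to 1.32% on the day 3 arrays.

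**Figure D3:**
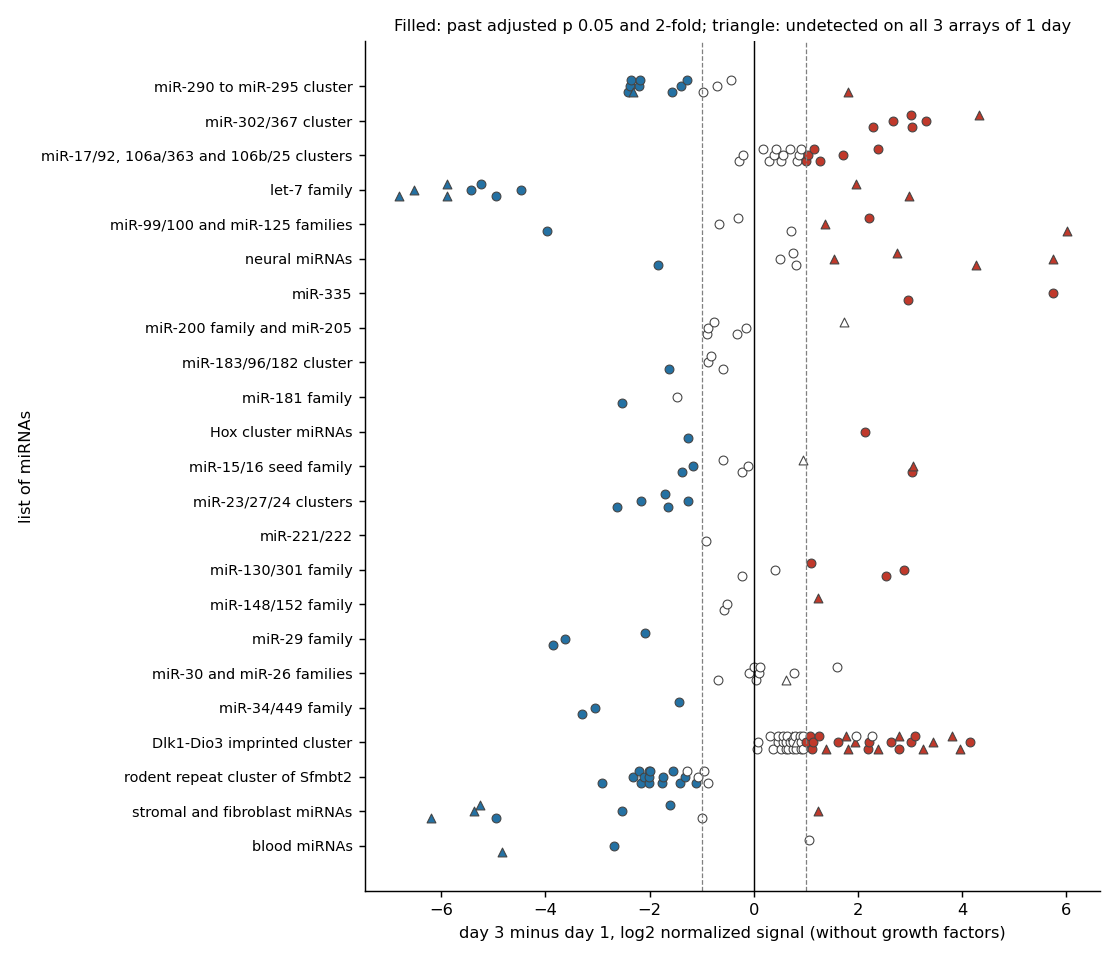
Difference of day 3 and day 1 in controls (x axis, log2 normalized signal) for each tested miRNA of 23 lists (rows), with filled symbols past an adjusted p of 0.05 and 2-fold, triangles for miRNAs undetected on all arrays of 1 day, and dashed lines at 2-fold. Points of let-7 main strands, miR-29, miR-34 and miR-23, miR-27 and miR-24 lie to the left of the dashed line, and those of miR-302 to miR-367 and miR-335 to the right.

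Among strands known from the nervous system, 2 main strands were detected on every day 3 array and on no day 1 array. Over all tested miRNAs, 67 of 297 were detected on no day 1 array. miR-219, known from oligodendrocytes, was undetected on all day 1 arrays and at 6.95, 7.10 and 6.19 at day 3, at least 4.62-fold higher. miR-9, a miRNA of neural progenitors, was undetected and then at 5.16, 5.32 and 5.33, at least 1.66-fold higher, although the call of miR-9 was lost with the slide as a term. miR-124, of neurons, was at 5.71, 5.26 and 5.59 and then at 6.21, 5.97 and 5.87, a difference of 0.50 that did not pass (adjusted p = 0.395). Of 8 tested members of the list 4 were called higher, beside 39.7% of all tested miRNAs, and 3 were not called. miR-7a fell from 8.26, 8.26 and 8.29 to 6.52, 6.37 and 6.43 (3.56-fold). The calls of miR-124* and miR-9* rested on mean levels below the mean lowest detected signal of the day 1 arrays. Of 15 list members on the array, 2 were detected on all day 1 arrays and 7 on all day 3 arrays, and the list's share of the mouse signal was 0.397% to 0.485% and then 0.362% to 0.450%.

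miR-335, transcribed with Mest, rose on both strands. miR-335-5p went from 5.81, 5.63 and 5.85 to 8.72 on each array, a 7.78-fold rise (adjusted p = 8.90e-06). miR-335-3p was detected at 4.17 on 1 day 1 array and at 7.82, 7.67 and 7.94 at day 3. Each day 3 value of either strand exceeded all day 1 values.

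Lists tied to epithelial state held few called members. None of the 6 tested members of the miR-200 family and miR-205 was called, and miR-205 had the highest difference, at 1.73. miR-200b was at 8.29, 8.22 and 8.32 and then at 7.31, 7.36 and 7.46, a difference of -0.90 (adjusted p = 3.41e-10), and miR-200c and miR-429 were at -0.89 and -0.76. These 3 had no overlap between the days yet stayed under 2-fold, and without normalization all 6 members were above 0. In the cluster of miR-183, miR-96 and miR-182 miR-183* fell 3.08-fold, while miR-183, miR-96 and miR-182 were at -0.87, -0.81 and -0.59. Without normalization all 4 of these strands were above 0. In the miR-181 family, a separate list, miR-181d fell from 7.43, 7.26 and 7.58 to 4.77, 5.07 and 4.81 (5.81-fold), and miR-181b, at -1.48, did not pass (adjusted p = 0.151).

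The remaining lists held members in both directions or few changes. In the seed family of miR-15 and miR-16, miR-322 was at 5.37 and 5.40 on 2 day 1 arrays and at 7.0, 6.93 and 7.0 at day 3 and was called higher with miR-503, from the same cluster, while miR-497 (2.61-fold) and miR-195 (2.26-fold), which form another cluster, fell. miR-15a, miR-16 and miR-15b were at -0.11, -0.22 and -0.59 and were not called. Of the miR-130 and miR-301 family, miR-301a rose from 6.72, 6.28 and 6.10 to 7.67, 7.73 and 6.97 (2.14-fold) and miR-301b and miR-130b* were called higher, while miR-130a was at -0.23. Of the Hox cluster miRNAs, miR-10a fell 2.39-fold and miR-10b, detected on 1 day 1 array at 4.48, was called higher at 3.93, 4.26 and 4.70. The miR-30 and miR-26 families had no called member among 9 tested, and miR-26a, at 8.61, 8.61 and 8.66 and then at 8.61, 8.61 and 8.81, differed by 0.05. miR-221 was at -0.93 and the miR-148 members at -0.52 and -0.57, none past the limits.

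Muscle, gut, liver and pancreas markers were at or near 0, and some blood markers were detected. All 8 muscle miRNAs on the array were undetected on the 6 arrays, and of 9 gut, liver and pancreas miRNAs 8 were, with miR-375 on 1 day 3 array. Of 11 blood miRNAs 7 were undetected on all 6 arrays, and the list's share of the mouse signal was 0.111% to 0.143% at day 1 and 0.0338% to 0.0587% at day 3. Within it miR-150, a lymphocyte miRNA, was at 5.90, 5.78 and 5.81 at day 1 and undetected at day 3, at least 10.71-fold lower, and miR-155 was at 5.33, 4.99 and 5.24 and then detected on 2 arrays at 3.34 and 3.16. miR-126-3p, of the endothelium, was at 5.48 and 4.95 on 2 day 1 arrays and at 4.70, 4.95 and 4.95 at day 3 and did not pass (adjusted p = 0.275).

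Outside these lists the highest bound among miRNAs that no day 1 array detected belonged to miR-483, of the Igf2 locus, at 7.52, 7.26 and 7.29 after no detection at day 1, at least 7.06-fold higher. miR-877, processed from a spliced intron, was at 6.76, 6.68 and 6.78 (at least 4.61-fold). miR-1896, miR-874, miR-685 and miR-1901 had bounds of 2.51-fold, 2.32-fold, 1.95-fold and 1.79-fold. miR-1224, also of the intron-derived kind, was at 10.38 on each day 1 array and at 13.32 on each day 3 array. It rose by 2.94 ± 0.18 (log2, SE) or 7.67-fold (adjusted p = 1.05e-14), and by 2.50 to 3.85 under the other scalings, the other background correction and the slide term. miR-135a* rose from 5.99, 5.74 and 5.76 to 8.26, 8.32 and 8.48, a 5.76-fold change.

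Several of the largest changes ran against the step before them. The untreated steps before and after share the day 1 and the day 3 arrays with this step, so their values are given side by side and not as independent evidence. All control day 5 arrays sat on a slide and in a scan session that held none of the ES, day 1 or day 3 control arrays. For the last step, time and scan session therefore cannot be told apart. From ES cells to day 1, 60 tested miRNAs were called (27%), 33 higher (14.9%) and 27 lower (12.2%), and 14.2% were called among those detected on all 6 arrays. From day 3 to day 5 it was 67 of 322 (20.8%), 36 higher (11.2%) and 31 lower (9.63%), and 17.3% among those detected on all 6 arrays. miR-302a was at 9.68 in ES cells, 8.11 at day 1, 10.79 at day 3 and 9.11 at day 5, falling, rising and falling past the limits. miR-302c followed with 7.18, 5.74, 9.05 and 7.56. The signal of the miR-302 to miR-367 cluster was thus highest at day 3 among the 4 times measured, with day 5 scanned in another session. miR-294 was at 13.32, 13.32, 12.89 and 11.22, with a called difference on the quantile scale only for the last step, of -1.67. Scaled to the 75th percentile, its difference from day 1 to day 3 was -2.28 and was called, so the timing of its fall depended on the scale.

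let-7f was at 7.09 in ES cells, rose to 8.92 at day 1, fell to 3.96 at day 3 and was at 4.78 at day 5, where the difference did not pass (adjusted p = 0.156). miR-199a-3p was at 8.08, 9.41, 4.47 and 4.60, and miR-29a at 8.77, 9.33, 5.70 and 4.38. miR-125b-5p, at 10.31, 10.79, 6.83 and 8.46, rose again after day 3. The low let-7 values of day 3 thus lay below those of the starting ES cells, which had been kept on feeder cells. Several rises followed a fall. miR-483 was at 6.10 in ES cells, undetected at day 1, at 7.36 at day 3 and at 7.71 at day 5, and miR-125a-3p at 5.78, undetected, 7.02 and 7.45. miR-494 was at 10.97, 8.63, 10.81 and 12.54 and miR-1224 at 11.64, 10.38, 13.32 and 13.32. For these 4 the day 1 value was the lowest of the 4 times. miR-9 and miR-219 instead were undetected in ES cells and at day 1 and continued from 5.27 to 7.89 and from 6.74 to 8.46 between day 3 and day 5. The 39 viral miRNAs on the array held up to 0.405% of the signal in ES cells, 0.124% at day 1 and 0.595% at day 3. Whether this bears on miR-483, miR-125a-3p, miR-494 and miR-1224 was not tested.

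**Figure D4:**
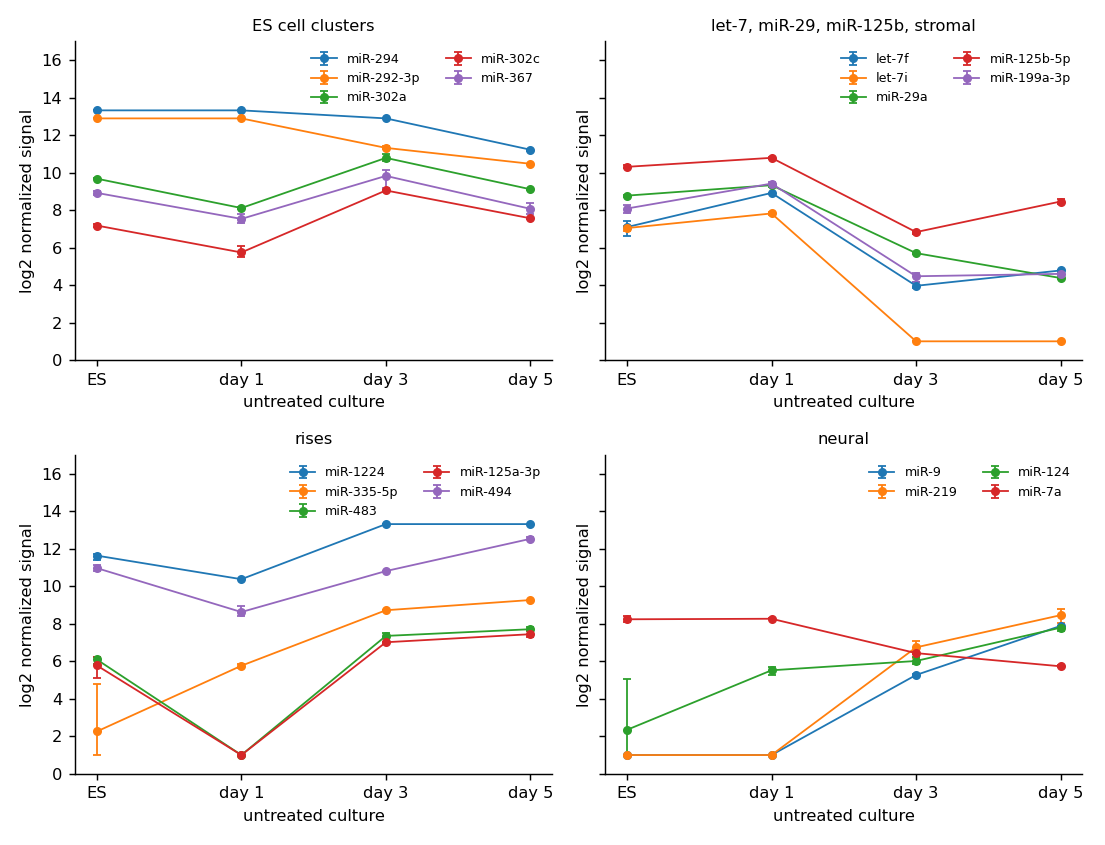
Mean log2 normalized signal (y axis, floor at 1) in ES cells and in controls at day 1, day 3 and day 5 (x axis), 3 arrays each, with bars from the lowest to the highest array. miR-302a, miR-302c and miR-367 peak at day 3, let-7f and miR-199a-3p drop after day 1, and miR-483 and miR-125a-3p are undetected at day 1 alone. The day 5 arrays sat on another slide and were scanned in another session than the rest.

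The step was then compared with the same step in cells given growth factors, by a limma test of the difference between the changes. Cells given Wnt3a had 162 of 311 tested miRNAs called from day 1 to day 3 (52.1%), with 34.7% higher and 17.4% lower. For Activin A it was 155 of 299 (51.8%), with 33.1% higher and 18.7% lower, and for the combination 49.5% of 307, with 32.2% higher and 17.3% lower. Among miRNAs detected on all 6 arrays of the treatment, 37.4%, 34.8% and 33% were called. The change itself differed from that of the controls for 19 of 313 miRNAs with Wnt3a (6.07%), 39 of 310 with Activin A (12.6%) and 59 of 320 with both (18.4%). With the slide as a term the count was 5 for Wnt3a and 35 for Activin A. The day 3 arrays of Activin A plus Wnt3a sat on a slide and in a scan session with no control array of day 1 or day 3, so for that treatment slide and group cannot be told apart. Without control day 1 array 1 or array 3 the Wnt3a count was 10 each time, and without array 2 it was 30. In the table of processed values that the authors deposited, 18 of the 39 columns, 9 named for Activin A and 9 for Activin A plus Wnt3a, matched arrays of the other of these 2 treatments on the same day, and all 9 control columns matched their own arrays. If the scanner files rather than that table were misnamed, the values of these treatments would be exchanged.

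Strands of the miR-290 to miR-295 cluster fell further in the controls than with Activin A. miR-291a-3p changed by -1.28 in the controls, 0.36 with Activin A and 0.20 with both. The control change differed by -1.64 from that with Activin A (adjusted p = 1.43e-08) and by -1.48 from that with both (adjusted p = 1.03e-07). For miR-292-3p the differences between the changes were -1.27 and -1.41, and for miR-293 they were -1.05 and -1.06. Scaled to the 75th percentile, those from Activin A were -0.97 and -0.92 and were not called. The star strand miR-295* differed by -1.40 and -1.28. The miR-302 to miR-367 cluster rose in all 4 conditions but by different amounts. miR-302a rose by 2.67 in the controls, 3.88 with Activin A and 3.84 with both, and the differences of -1.21 and -1.17 passed the test. miR-367 rose by 2.29 in the controls against 4.25 and 4.07, differences of -1.95 and -1.77. miR-302c rose more in the controls than with Wnt3a, by 3.31 against 2.13 (difference 1.18, adjusted p = 3.89e-06), and this difference was the only 1 of the 5 named for Wnt3a that was called with the slide as a term.

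miR-335-5p rose by 2.96 in the controls, 0.26 with Activin A and 0.84 with both (differences 2.70 and 2.12). miR-219 was undetected at day 3 on all arrays of both Activin A treatments, against 6.74 in the controls. With Wnt3a, miR-335-5p reached 8.87 and miR-219 reached 6.85 at day 3. miR-125b-5p fell less in the controls, with -3.96 against -6.08 and -5.84 (differences 2.12 and 1.88, adjusted p = 7.06e-14 and 1.42e-12). miR-200b differed by -0.90 in the controls while it was at 0.62 and 0.83 in the other two, and these differences, -1.53 and -1.73, were called. miR-200a, miR-200c and miR-429 showed the same, with differences of -1.66, -1.52 and -1.60 from Activin A, but fell outside the rule for naming and were chosen after their values were seen. Of the miR-17 to miR-92a strands, miR-20b differed by 1.11 and 1.16 and miR-92a by 1.25 and 1.52, and none of these 4 was called when arrays were scaled to the 75th percentile. Of the let-7 main strands, let-7c fell by more in the controls than with Activin A and with both (differences -2.60 and -2.01), as did let-7e (-2.73 and -2.59), at control levels that 2 of the 3 day 3 arrays detected. The other 6 main strands had no called difference from any treatment, and let-7i was undetected at day 3 in all 4 conditions.

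**Figure D5:**
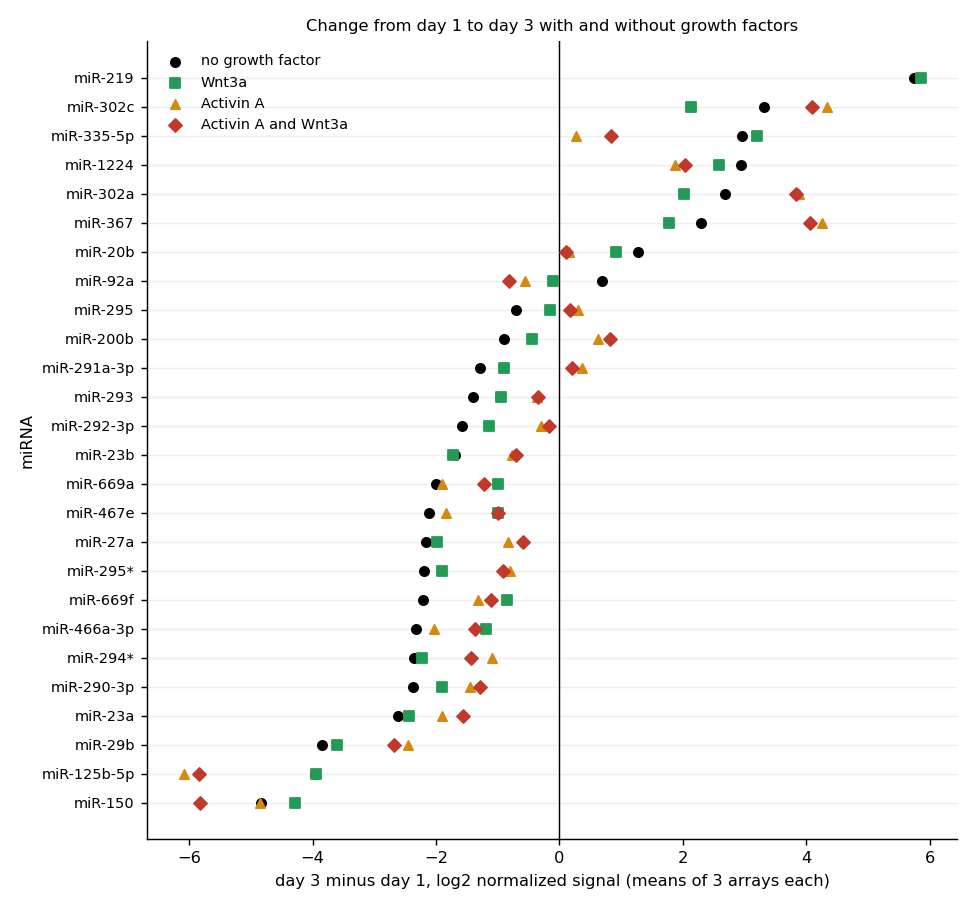
Change from day 1 to day 3 (x axis, log2 normalized signal, means of 3 arrays each) in untreated cells and in cells given Wnt3a, Activin A or the combination, for 26 named miRNAs (rows) whose control change differed from at least 1 treated change and which were detected on all 12 arrays or named for size or brightness. miR-335-5p and the miR-290 to miR-295 strands separate the Activin A conditions from the other two, and miR-219 has no point for the Activin A conditions, where it was undetected on both days.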

How the data were processed

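RNA of 13 groups of 3 samples was labelled with Cy3 and hybridised to Agilent mouse miRNA arrays, 39 in all. The authors deposited scanner output made by Agilent Feature Extraction, version 10.7.3.1 per the file headers and 9.5.3.1 per the labels. Per the file headers, the intensities deposited by the authors are total gene signals, background-subtracted, summed over the probes of a miRNA, and set to 0.1 where it was not detected. The detection calls deposited beside it are flags of another kind, per the file headers. No array had a saturated spot. A table of log2 values, normalized by the authors, was also deposited and served as an alternative.

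From the intensities of 650 miRNAs, 611 of mouse and 39 of viruses, quantile normalization (limma 3.58.1, R 4.3.3) was run across the 39 arrays, normalized values under 2 were raised to 2, and log2 was taken. One linear model over 13 groups gave moderated tests (limma, Benjamini-Hochberg adjustment over the 297 mouse miRNAs detected on at least 2 of 3 arrays of control day 1 or day 3). A miRNA was called past 2-fold where its adjusted p was also under 0.05, limits taken from the study's methods. Differences between the control and treated changes were tested as contrasts in the same model. The number of arrays limits the precision. Tested on simulated data for day 3 against day 1 with 180 miRNAs, the model recovered 37 of 40 changes of size 2 and 20 of 20 of size 3 (log2) and called 1 of 120 unchanged miRNAs. The 180 were miRNAs detected on all day 1 arrays, simulated with normal noise and no floor or slide effect. These rates therefore do not cover miRNAs undetected at day 1 or differences between slides.

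Named miRNAs were the 10 largest rises and falls among called miRNAs detected on all 6 arrays without overlap, up to 8 per direction among those undetected on 1 day, the 8 brightest, and the called members of each list or its brightest member. The members and lists were chosen with earlier results of these data known. Alternatives covered normalization, background correction (normexp, offset 50), floor, filter, model, slide (statmod 1.5.0 for the random block), replicate block, thresholds and leaving out each array. Samples were grouped by their labels.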

Additional observations from a re-analysis of the deposited data

Results flagged for a closer look

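For 42 pairs of a named miRNA and a treatment, the control change from day 1 to day 3 differed from the treated change in limma (Benjamini-Hochberg adjusted p under 0.05 and over 1 on the log2 scale). Values are the control change minus the treated change. Against Wnt3a the difference was 1.18 for miR-302c, -1.13 for miR-466a-3p, -1.11 for miR-467e, -1.02 for miR-669a and -1.35 for miR-669f. With the slide as a term, miR-302c alone of these 5 was called. Scaled to the 75th percentile, miR-466a-3p was at -0.99 and was not called.

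Against Activin A the difference was -1.64 for miR-291a-3p, -1.27 for miR-292-3p, -1.05 for miR-293, -1.27 for miR-294*, -1.003 for miR-295 and -1.40 for miR-295*. In the miR-302 to miR-367 cluster it was -1.21 for miR-302a, -1.03 for miR-302c and -1.95 for miR-367. It was 1.06 for miR-1224, 1.11 for miR-20b, 1.25 for miR-92a, 2.12 for miR-125b-5p, 2.70 for miR-335-5p and 5.74 for miR-219, and -1.53 for miR-200b and -1.40 for miR-29b. miR-219 was detected on 3 of the 12 arrays, so 5.74 is set against undetected values and is no exact size, and with the floor at 16 it was 2.74. With the slide as a term 13 of these 17 were called. Scaled to the 75th percentile, miR-1224 was at 0.41 (adjusted p = 0.301), miR-20b at 0.18 and miR-92a at 0.40. On that scale miR-292-3p was at -0.97 and miR-293 at -0.92, and none of these was called.

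Against Activin A plus Wnt3a the difference was -1.08 for miR-290-3p, -1.48 for miR-291a-3p, -1.41 for miR-292-3p, -1.06 for miR-293 and -1.28 for miR-295*. It was -1.17 for miR-302a, -1.77 for miR-367, -1.73 for miR-200b, -1.17 for miR-29b, -1.06 for miR-23a, -1.002 for miR-23b, -1.57 for miR-27a, -1.11 for miR-467e and -1.09 for miR-669f. It was 1.88 for miR-125b-5p, 1.00 for miR-150, 1.16 for miR-20b, 1.52 for miR-92a, 2.12 for miR-335-5p and 5.74 for miR-219. The value of miR-219 is again set against undetected values (2.74 with the floor at 16), as is that of miR-150, which no control day 3 array detected. Scaled to the 75th percentile, miR-150 was at 0.77, miR-20b at -0.13 and miR-92a at 0.35. On that scale miR-23b was at -0.99 and miR-669f at -0.95, and none of these was called. For this treatment slide and group cannot be told apart, and the naming of the arrays of the Activin A treatments is unsettled.

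Of 39 viral miRNAs on the array, 7, 4 and 6 were detected on the control day 3 arrays, 4 of them on all 3, and 1 to 3 on the control day 1 arrays. They held up to 0.595% of the signal at day 3, up to 0.124% at day 1 and up to 0.405% in ES cells, and the cause was not tested.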

How the results depend on the processing

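Of 120 named miRNAs that were called, 26 were called in the same direction under every alternative that left out no array. Leaving out 1 array ended the call of miR-19b, miR-18a, miR-17*, miR-291b-5p, let-7b*, miR-100, miR-10a, miR-10b, miR-322, miR-301a, miR-667, miR-323-3p, miR-410 or miR-466g at least once. The count of 181 was 40 with normexp background correction and 78 when only miRNAs detected on all 6 arrays were tested, and lay between 160 and 180 with 1 array left out. It was 141 with the replicate block over 6 arrays and 179 over 39 arrays. The replicate numbers did not pair the samples (correlations of deviations -0.04, -0.30 and 0.19). The difference in detected miRNAs was 59.7 to 86.8 with 1 array left out. The Wnt3a count of 19 was 5 with the slide as a term and 10 to 30 with 1 control array left out, the Activin A count 35 to 47 and that for both 47 to 70, omissions that were chosen after seeing the data. The slide term for Activin A plus Wnt3a was not run, because it cannot be estimated.

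Directions turned as follows, and the cause was not tested. Scaled to the 75th percentile over all miRNAs, miR-26a was at -0.27 and miR-92a at -0.44, and over those detected on all arrays they were at -0.11 and -0.27. Without normalization miR-34a was at 0.019, miR-669c at 0.022, miR-10a at 0.19, miR-221 at 0.25, miR-183* at 0.27 and miR-200b at 0.32. With normexp miR-291b-5p was at -0.0062, miR-382* at -0.0072, miR-99a at -0.0079, miR-130b* at -0.011, miR-26a at -0.019, let-7b* at -0.027, miR-770-3p at -1.14 and miR-294* at 0.85. With the slide as a term miR-26a was at -0.12, let-7f* at -0.28 and miR-291b-5p at -0.69. With 1 array left out miR-26a ran from -0.017 to 0.087. With undetected values raised to the lowest detected signal of the array miR-130b* was at -0.020, miR-496 at -0.087, miR-18a* at -0.16, miR-770-3p at -0.29, miR-100 at -0.35, miR-10b at -0.42, miR-503 at -0.48, let-7f* at -0.55, let-7b* at -0.74, miR-376b* at -0.75, miR-124* at -0.78, miR-667 at -0.90, miR-291b-5p at -0.90, miR-665 at -1.16, miR-9* at -1.17, miR-433* at -1.32, miR-99a at -1.34, miR-152 at -1.48, miR-431* at -1.59 and miR-376a* at -1.77.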
